A study of Mus musculus with 12 samples.

Results

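The GIMAP genes (GTPases of immunity-associated proteins) encode GTP-binding proteins that are expressed mainly in lymphocytes and lie side by side in 1 gene cluster. The 8 mouse members Gimap1, Gimap3, Gimap4, Gimap5, Gimap6, Gimap7, Gimap8 and Gimap9 were taken by symbol, and all 8 were measured, among 10405 genes with values in regulatory T cells (Treg) and 9886 in conventional T cells (Tcon). The family was chosen by the values of Gimap7 in peptide-treated against vehicle Tcon. That contrast is therefore given below as a description, and nothing about the members is supported with it.

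RNA sequencing was done on 12 libraries from B6.Cg-Foxp3tm2Tch/J mice, a strain in which FOXP3-expressing cells also carry GFP from the FOXP3-IRES-GFP allele. Animals in both arms were injected intraperitoneally on each of 2 days, with vehicle (DMSO in the sample titles) or with SAH-FOXP3(229-259)C at 25 mg/kg. This agent, called SAH below, is a stapled alpha-helical peptide named for a stretch of FOXP3, the lineage factor of Treg. CD4+CD25+FOXP3+ Treg and naive CD4+ Tcon gave 6 libraries each: library 01 was lymph node with vehicle, 02 and 03 were lymph node with SAH, 04 was spleen with vehicle, and 05 and 06 were spleen with SAH. Each organ thus had 1 vehicle library per cell type. The labels give neither ages nor whether libraries came from separate or pooled mice. Nor do they say whether lymph node and spleen libraries, or same-numbered Treg and Tcon libraries, share mice. The organ fits took the libraries as independent. The p-values therefore reflect the spread among these libraries alone, and that spread may be technical.

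GIMAP proteins share a GTP-binding domain of the AIG1 type, and several sit on intracellular membranes through a tail at the carboxyl end. The family is known for controlling the survival of resting lymphocytes: loss of Gimap5 causes lymphopenia in mice and rats, and Gimap1 is needed to maintain mature T and B cells. Gimap4 has been linked to the execution of apoptosis in T cells, Gimap6 to autophagy, and human GIMAP7 activates GTP hydrolysis by pairing with itself or a related member.

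The members spanned 123.618 kb of chromosome 6 (build mm10, GENCODE annotation). In chromosomal order, Gimap8 lay at 48647234 to 48660875, Gimap9 at 48676129 to 48679114 and Gimap4 at 48684549 to 48692060, all on the plus strand. Gimap6 followed on the minus strand at 48701582 to 48708225, and Gimap7 on the plus strand at 48718621 to 48724636. Gimap1 (48739054 to 48743795) and Gimap5 (48746197 to 48754210) were next on the plus strand, and Gimap3 (48764464 to 48770851) closed the cluster on the minus strand. All are protein-coding. The annotated readthrough gene Gm28053 overlaps Gimap7, Gimap1 and Gimap5 on the same strand, and Gimap1os overlaps Gimap1 on the opposite strand, so reads of these 3 members are uncertain to the extent that counting could not separate them from those genes.

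Upstream sequences are shown for Gimap7, the member with the largest differences between libraries, for Gimap4, the member whose pattern was most like it, and for Gimap9, whose pattern was least like it. Each holds the 250 bases before the RefSeq start on the plus strand (GRCm38.p6), and capitals mark matches to the motifs described after them. The RefSeq starts of Gimap4 and Gimap9 lie slightly inside the GENCODE genes.
Gimap7, chr6:48718371-48718620: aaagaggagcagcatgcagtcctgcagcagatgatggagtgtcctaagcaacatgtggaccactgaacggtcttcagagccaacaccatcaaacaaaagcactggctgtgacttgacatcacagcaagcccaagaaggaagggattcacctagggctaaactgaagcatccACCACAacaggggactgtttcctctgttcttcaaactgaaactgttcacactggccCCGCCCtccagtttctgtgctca
Gimap4, chr6:48684328-48684577: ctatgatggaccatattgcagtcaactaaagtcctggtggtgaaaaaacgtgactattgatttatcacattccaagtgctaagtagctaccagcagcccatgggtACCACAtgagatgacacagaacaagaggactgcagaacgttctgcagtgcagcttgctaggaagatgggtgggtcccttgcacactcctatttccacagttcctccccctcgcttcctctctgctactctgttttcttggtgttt
Gimap9, chr6:48675885-48676134: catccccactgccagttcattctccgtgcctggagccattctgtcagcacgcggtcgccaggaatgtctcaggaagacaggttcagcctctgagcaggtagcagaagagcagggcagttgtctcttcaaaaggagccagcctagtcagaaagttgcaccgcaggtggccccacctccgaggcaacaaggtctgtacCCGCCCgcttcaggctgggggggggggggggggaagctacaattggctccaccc

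A set of 6 motifs was searched on both strands in the 250 bases before each start, over 9 windows of the 8 members and 32851 windows of all genes. The RUNX core TGTGGT (reverse complement ACCACA) was found before Gimap7, Gimap4 and Gimap1, and in 14.0% of all windows. The GC box GGGCGG (reverse complement CCGCCC) was found before Gimap7 and Gimap9, and in 32.7% of all windows. The ETS core GGAAGT occurred before Gimap6 and, at 2 positions, before Gimap5, against 19.7% of all windows, and the forkhead core TGTTTAC before Gimap3, against 3.17%. The AP-1 site TGACTCA, present in 4.46% of all windows, and the heat shock element, present in 0.466%, matched none of the 9 windows. None of these motifs overlapped another in the sequences shown. The matches are descriptions of letters and were not tested against expression.

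The libraries held 36442420 to 48888678 reads in the listed genes, rebuilt from the steps of the values, so 1 read was worth at most 0.0267 of the signal that the files call CPM. Even the lowest member value, Gimap7 in Tcon library 03, rested on 1125 reads. Foxp3 was 655 to 726 in Treg and 19.6 to 24.9 in Tcon, and Il2ra, which encodes CD25, was 520 to 788 against 3.85 to 6.94, as the labels of the sorted cells say. Cd4 was 696 to 752 in Treg and 947 to 1018 in Tcon. Markers of other cells were also measured: their summed signal was higher in spleen than in lymph node for B cell markers (Treg, 4 of 10 measured, 27.6 to 28.0 against 19.3 to 21.2; Tcon, 2 of 10, 5.39 to 6.85 against 2.68 to 3.56), myeloid markers (Treg, 4 of 10, 63.0 to 98.0 against 26.5 to 27.9; Tcon, 3 of 10, 39.1 to 44.9 against 18.5 to 20.7) and red cell markers (Treg, 2 of 10, 10.7 to 139 against 0.625 to 0.849; Tcon, 1 of 10, 3.38 to 50 against 0). The summed CD8 and natural killer markers were higher in spleen Tcon (7 of 10, 86.4 to 114 against 41.2 to 46.7). In spleen Treg their sum was lower (5 of 10, 33.5 to 34.8 against 40.6 to 41.1), while Nkg7 was lower (log2 -0.81) and Klrb1c (1.02) and Eomes (0.65) were higher there, all with an adjusted p below 0.05 in limma. The 1 endothelial marker measured, Pecam1, was 155 to 178 in spleen and 172 to 184 in lymph node Treg, and 193 to 204 against 188 to 194 in Tcon. The remaining markers were not analysed here. The part of these cells in the organ differences below was not tested.

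Per kilobase of exon, Gimap6, Gimap4 and Gimap3 were the highest members in both cell types, and Gimap7 was the lowest. In Treg the mean signal per kb over 6 libraries was 363 ± 62.2 (SD, n = 6) for Gimap3, 304 ± 63.7 for Gimap4 and 251 ± 59.3 for Gimap6, and the ranges of neighbours in this order overlapped. Gimap8 followed at 125 ± 8.58 and Gimap9 at 86.4 ± 6.96, each with a range apart from its neighbours. Gimap5 at 40.4 ± 6.60, Gimap1 at 36.4 ± 2.68 and Gimap7 at 33.7 ± 13.4 overlapped in range. Tcon had a different leader: Gimap6 stood at 498 ± 59.4 per kb (SD, n = 6), Gimap4 at 405 ± 59.8 and Gimap3 at 316 ± 36.7, again with overlapping ranges. Gimap9 (140 ± 7.24) and Gimap8 (116 ± 10.2) formed an overlapping middle pair, above Gimap5 (31.8 ± 3.74), Gimap1 (27.9 ± 1.28) and Gimap7 (21.3 ± 8.79).

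The Treg and Tcon tables were normalized separately, so levels between the cell types are set side by side without a test. The mean signal in Treg was 0.505 times that in Tcon for Gimap6, 0.615 times for Gimap9 and 0.749 times for Gimap4. It was 1.08 times for Gimap8, 1.15 times for Gimap3, 1.27 times for Gimap5, 1.31 times for Gimap1 and 1.58 times for Gimap7. The ranges of the Treg and Tcon libraries did not overlap for Gimap1, Gimap6 and Gimap9, 3 of 8 members. Of the 9784 genes with values in both, 52.1% did not overlap, and with 8 members the count is near that share. Gimap6 thus carried the highest signal per kb in Tcon and only the third highest in Treg.

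**Figure D1:**
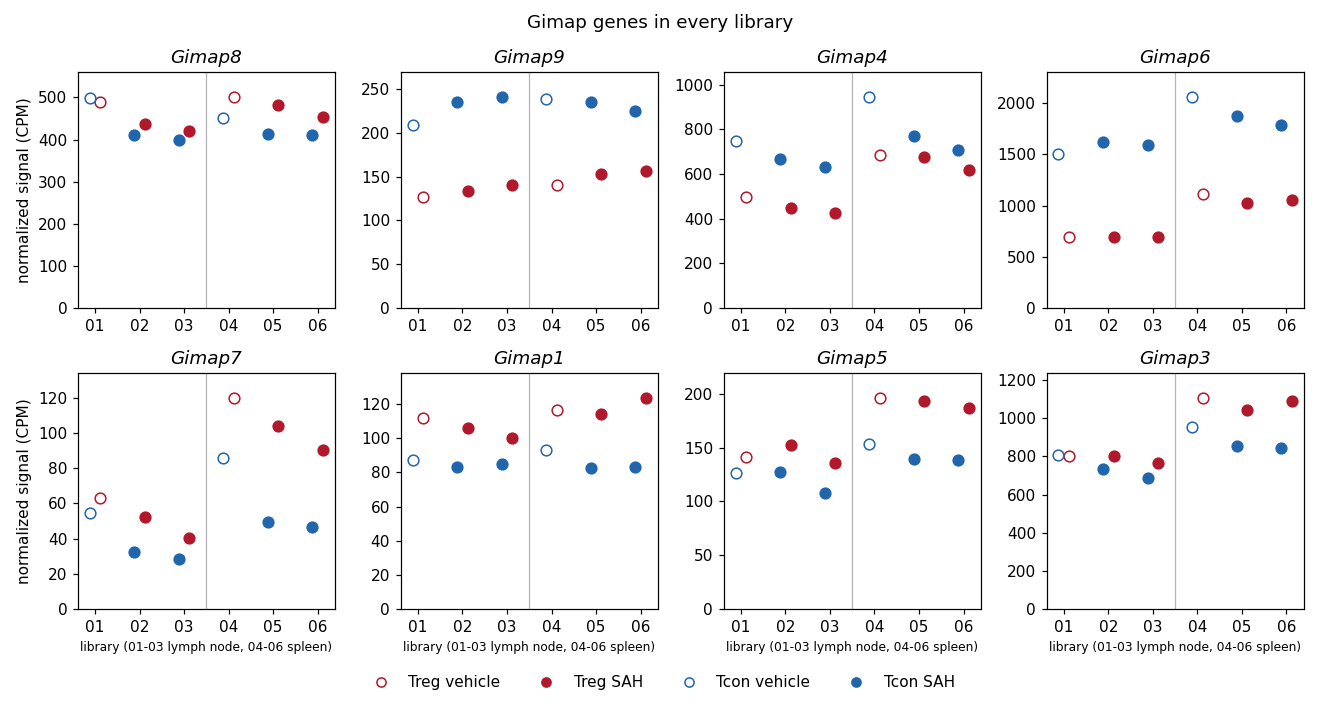
Normalized signal (CPM, linear axis from 0) of the 8 members in each library, in chromosomal order; red points are Treg, blue points are Tcon, open points vehicle and filled points SAH. Gimap7 ran from 28.7 to 85.9 in Tcon and from 40.4 to 119.8 in Treg, with spleen above lymph node within each treatment and vehicle above SAH within each organ.

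In Treg, 6 of the 8 members were higher in spleen than in lymph node, none was lower, and Gimap7 moved the most. The signal of Gimap7 in Treg was 63.0, 52.5 and 40.4 in lymph node libraries 01 to 03 and 119.8, 104 and 90.3 in spleen libraries 04 to 06. Every spleen library was above every lymph node library, and the fitted difference was 2.02-fold (95% interval 1.78 to 2.28, log2 1.01, limma with Benjamini-Hochberg adjustment, adjusted p = 1.5e-06). In comparison, 14.7% of the 10405 genes passed the same test at an adjusted p below 0.05, 8.71% of them higher and 6.01% lower. The median log2 difference was 0.44 over the members and 0.42 without Gimap7, against -0.00 over all genes.

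Gimap6, which is recruited to autophagosomes, was the next largest, with 694, 689 and 691 in lymph node Treg and 1115, 1027 and 1056 in spleen Treg, and again no overlap. It was 1.54-fold higher (log2 0.62, adjusted p = 1.48e-06, limma). Gimap4 stood at 496, 446 and 424 against 686, 676 and 619, or 1.45-fold higher (log2 0.54, adjusted p = 8.8e-06). Gimap3, a close relative of Gimap5, rose by 0.45 on the log2 scale in spleen Treg (766 to 804 in lymph node, 1043 to 1104 in spleen, adjusted p = 3.94e-05, limma). Gimap5 rose by 0.42 (136 to 153 against 187 to 196, adjusted p = 7.48e-05, limma). The smallest called difference was Gimap9, at 126, 134 and 140.5 against 141, 153 and 156 (log2 0.17, adjusted p = 0.0232, limma). That call was lost when library 01, 02, 03 or 04 was left out (adjusted p = 0.127, 0.133, 0.0508 and 0.126), while the other 5 calls held in all 6 left-out fits. Gimap1 (log2 0.16, adjusted p = 0.0646) and Gimap8 (log2 0.09, adjusted p = 0.249), the member with repeated GTP-binding domains, did not pass. All spleen Treg libraries lay above all lymph node Treg libraries for 7 of 8 members, Gimap8 being the exception, compared with 16.8% of all genes. Within each treatment, spleen was above lymph node for 8 of 8 members, compared with 20.6% of all genes. Bulk values of this kind cannot tell fewer cells of a type from less RNA per cell.

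In Tcon, 5 members were higher in spleen and none lower, with smaller differences than those fitted in Treg. Gimap7 in Tcon was 54.5, 32.3 and 28.7 in lymph node libraries 01 to 03 and 85.9, 49.5 and 46.6 in spleen libraries 04 to 06. The lymph node vehicle library was above both spleen SAH libraries, so the organs overlapped across treatments, but within each treatment spleen was higher, by 1.575-fold in both. That held for 5 of 8 members, Gimap3, Gimap4, Gimap5, Gimap6 and Gimap7, compared with 14.9% of all genes. The fitted difference was 1.56-fold (log2 0.64, 95% interval 0.50 to 0.78, limma adjusted p = 0.000164), and the call held in all 6 fits that left out 1 library. Across all 9886 genes, 4.73% passed, 3.28% higher and 1.46% lower, and the median log2 difference was 0.24 over the members and -0.00 over all genes.

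The other 4 calls in Tcon were small and fragile. Gimap6 was 1501, 1625 and 1591 in lymph node Tcon and 2059, 1876 and 1792 in spleen Tcon (log2 0.28, adjusted p = 0.0373, limma). Gimap3 was 805, 736 and 688 against 955, 856 and 845 (log2 0.25, adjusted p = 0.0181), and Gimap5 was 126, 127 and 108 against 153, 139.6 and 139 (log2 0.26, adjusted p = 0.0494). Neither gene had overlapping organs, and the same was true of Gimap6, 3 of 8 members against 10% of all genes. Gimap4 did overlap, with 748, 668 and 631 against 944, 768 and 709 (log2 0.24, adjusted p = 0.0461). Without library 01, 03, 04 or 05, only Gimap7 of the 8 members was called, and without library 06, Gimap3 and Gimap5 lost their calls. Over all alternatives the adjusted p ranged from 0.00638 to 0.111 for Gimap3, from 0.0172 to 0.234 for Gimap4, from 0.005 to 0.181 for Gimap5 and from 0.0176 to 0.206 for Gimap6. Gimap1 (log2 0.02), Gimap9 (log2 0.03) and Gimap8 (log2 -0.03) did not pass, and each of these 3 values changed sign when library 01 or 04 was left out.

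**Figure D2:**
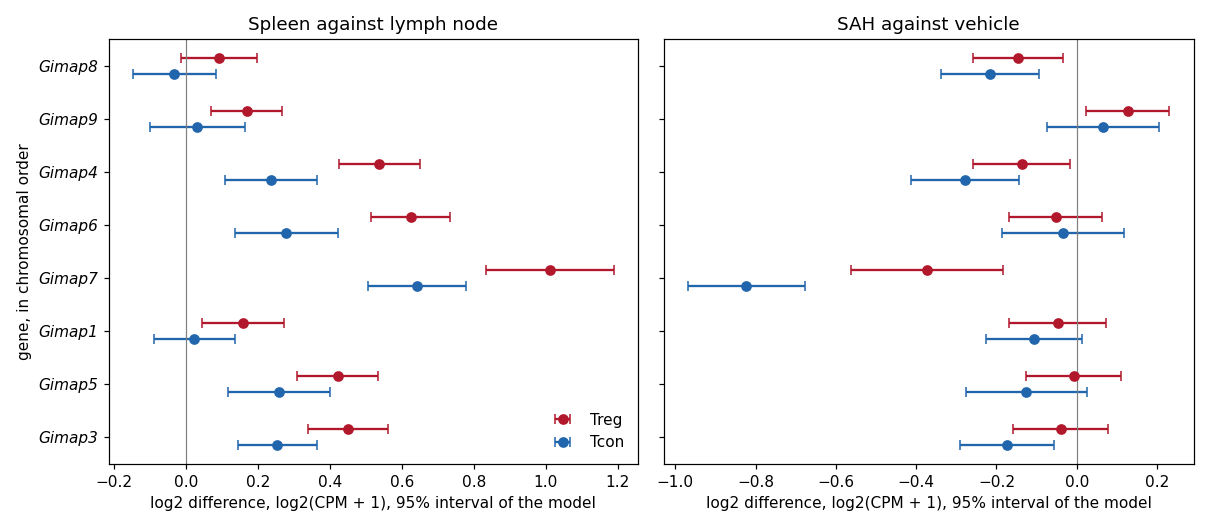
Fitted log2 differences of the 8 members on the log2(CPM + 1) scale, spleen against lymph node on the left and SAH against vehicle on the right, with 95% intervals of the model; red is Treg and blue is Tcon. Gimap7 lies farthest from 0 of the 8 members by organ in Treg (1.01) and Tcon (0.64) and by treatment in Treg (-0.37). It also does so by treatment in Tcon (-0.82), but that is the contrast by which it was chosen.

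Whether the organ difference itself differed between Treg and Tcon was tested with an interaction term over the 9784 genes with values in both cell types. All 8 members had the larger spleen excess in Treg, by 0.13 to 0.37 on the log2 scale, but none passed in the fit without a replicate block, in which 1.46% of genes did. At an unadjusted p below 0.05, limma gave 4 members and 1190 of the 9784 genes. Libraries with the same number in Treg and Tcon deviated together, and with that number as a block 4 members passed, all with the larger difference in Treg, against 7.19% of genes (3.76% in that direction). These were Gimap7 (0.37, adjusted p = 0.00267), Gimap6 (0.35, adjusted p = 0.00235), Gimap4 (0.30, adjusted p = 0.00407) and Gimap3 (0.20, adjusted p = 0.0415). The call therefore depends on the block for these 4 genes, and the labels do not say whether the numbers pair the libraries. Without the block, Gimap6 alone passed when Tcon library 01 or 04 was left out (adjusted p = 0.0128 and 0.0122).

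The peptide contrast in Treg used other libraries than those by which Gimap7 was chosen. It is not independent of them, since same-numbered Treg and Tcon libraries deviated together and the family was chosen with results of both cell types known. No member passed in this contrast, in which limma called 0.202% of the 10405 genes (0.135% higher, 0.0673% lower). At an unadjusted p below 0.05 there were 4 members, Gimap4, Gimap7 and Gimap8 lower and Gimap9 higher, and 733 of the 10405 genes. Gimap7 had the largest difference of the 8, a log2 value of -0.37 (95% interval -0.56 to -0.18, adjusted p = 0.175, limma). In lymph node Treg both SAH libraries were below vehicle, by 16.7% and 35.9%, and in spleen Treg by 13.1% and 24.6%. Gimap7 was called without library 05 (log2 -0.43, adjusted p = 0.0226) or without library 06 (log2 -0.34, adjusted p = 0.0304), and its adjusted p reached 0.999 without library 01. Gimap8 (log2 -0.15, adjusted p = 0.555), Gimap4 (-0.14, adjusted p = 0.642) and Gimap9 (0.13, adjusted p = 0.603) had differences of similar size and mixed sign. All 4 SAH libraries were below the vehicle library of their organ for Gimap4, Gimap6, Gimap7 and Gimap8, compared with 11.7% of all genes, and all 4 were above it for Gimap9, compared with 13.4%. The median log2 difference was -0.05 over the members and 0.00 over all genes.

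In Tcon, the contrast that picked out Gimap7, its signal was 40.8% and 47.3% lower with SAH in lymph node and 42.4% and 45.8% lower in spleen. The mean of the SAH libraries was 0.559 times vehicle in each organ, and the fitted log2 difference was -0.82 (95% interval -0.97 to -0.68). None of the 7 measured CD8 and natural killer markers passed in limma in this contrast. Klrb1c was at -0.45 (adjusted p = 0.334), Klrd1 at -0.39 (0.15), Klrk1 at -0.36 (0.236), Nkg7 at -0.16 (0.729) and Eomes at -0.13 (0.7). Prf1 at 0.05 (0.809) and Cd8b1 at 0.02 (0.944) had the opposite sign. The summed CD8 and natural killer markers were 46.0 with vehicle and 46.7 and 41.2 with SAH in lymph node Tcon, and 114 with vehicle and 86.4 and 87.8 with SAH in spleen Tcon. Their part in the Gimap7 values was not tested. No neighbour of Gimap7 approached its size: Gimap4 was at -0.28, Gimap8 at -0.22, Gimap3 at -0.17, Gimap5 at -0.13, Gimap1 at -0.11, Gimap6 at -0.03 and Gimap9 at 0.06. Gimap9 was above vehicle in lymph node (209 with vehicle, 235 and 241 with SAH) and below it in spleen (239 with vehicle, 235 and 225 with SAH). Gimap6 likewise was above vehicle in lymph node and below it in spleen. All 4 SAH libraries were below vehicle for Gimap1, Gimap3, Gimap4, Gimap7 and Gimap8, and 16.7% of all genes had that pattern. Across the 9886 genes 1.04% passed an adjusted p below 0.05, and 0.162% passed as lower. In the authors' deposited table for Tcon, Gimap7 had a log2 fold change of -0.84 and Gimap4 one of -0.28. Both were among the 102 of 9886 genes marked as lower. The mark of Gimap7 and its interval above rest on the values by which it was chosen, so they give it no support. The mark of Gimap4 comes from the same contrast and gives it no support either. Gimap4 did not pass in limma here (adjusted p = 0.0631). No member was marked in the authors' deposited table for Treg, where Gimap7 stood at -0.37 with a false discovery rate of 0.134.

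To set Gimap7 against its neighbours within each library, its log2 value was compared with the mean of the other 7 members. In Tcon the difference was -2.76 with vehicle and -3.45 and -3.55 with SAH in lymph node, and -2.32 with vehicle and -2.96 and -3.0 with SAH in spleen. Relative to its neighbours Gimap7 was therefore lower with SAH by 0.74 in lymph node and 0.66 in spleen on the log2 scale, and the residual SD was 0.0539. In Treg the difference was -2.28 with vehicle and -2.51 and -2.83 with SAH in lymph node, and -1.69, -1.87 and -2.07 in spleen. The SAH libraries were again on the low side in both organs, by 0.39 and 0.27, with a wider residual SD of 0.158. The same measure was higher in spleen by 0.66 in Treg and 0.49 in Tcon. As a share of the summed signal of the family, Gimap7 made up 0.761% to 1.72% in Tcon and 1.48% to 3.01% in Treg. These values describe a gene that was chosen for its difference and carry no test.

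**Figure D3:**
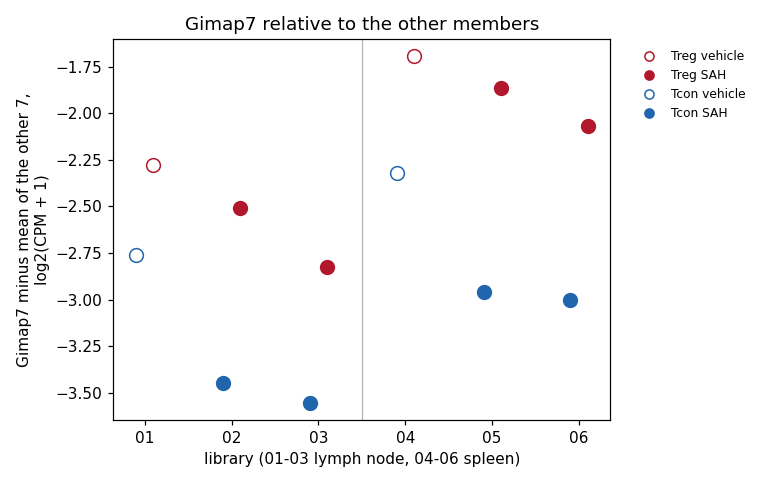
Gimap7 minus the mean of the other 7 members, log2(CPM + 1), in each library; red is Treg, blue is Tcon, open points vehicle and filled points SAH. In both organs and both cell types the SAH points lie below the vehicle point, from -2.76 to -3.45 and -3.55 in lymph node Tcon and from -2.28 to -2.51 and -2.83 in lymph node Treg.

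The peptide effect compared between Treg and Tcon gave no called gene among 9784 (0%) in limma without a block, with 453 genes at an unadjusted p below 0.05. Gimap7 differed by 0.45 on the log2 scale (95% interval 0.18 to 0.72), a smaller reduction in Treg than in Tcon, which is a description because it holds the contrast used for choosing the gene. Without a block, the other 7 members lay between -0.02 and 0.14, and each of their intervals included 0. With the library number as a block, 0.777% of all genes passed. The interval of the Gimap7 difference was then 0.30 to 0.60, again without a test. With that block the unadjusted intervals of Gimap3 (0.0086 to 0.26), Gimap4 (0.0090 to 0.27) and Gimap5 (0.0044 to 0.23) lay just above 0. None of these genes passed after adjustment (adjusted p = 0.445, 0.445 and 0.464, limma), and the contrast holds the values used for choosing. Those of Gimap1, Gimap6, Gimap8 and Gimap9 included 0. None of these intervals is adjusted for the number of genes.

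Genes next to the family were counted for comparison. Within 500 kb on either side, 51 other genes are annotated, 22 of them protein-coding, and 11 had values in at least 1 cell type: Krba1, Zfp467, Sspo, Lrrc61, Repin1, Tmem176b, Tmem176a, Gpnmb, Malsu1, Igf2bp3 and Tra2a. In Treg, 0 of 10 were higher in spleen and 1 was lower, Sspo (log2 -1.38, adjusted p = 5.06e-07, limma), against 8.71% of all genes higher and 6.01% lower, and the median log2 difference was -0.03. In Tcon 0 of 8 passed, against 4.73% of all genes, with a median of 0.01. With so few genes, counts of 0 are near these shares. With SAH, 0 of 10 passed in Treg and 0 of 8 in Tcon, against 0.202% and 1.04% of all genes. The log2 differences ran from -0.13 to 0.35 in Treg and from -0.17 to 0.09 in Tcon.

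**Figure D4:**
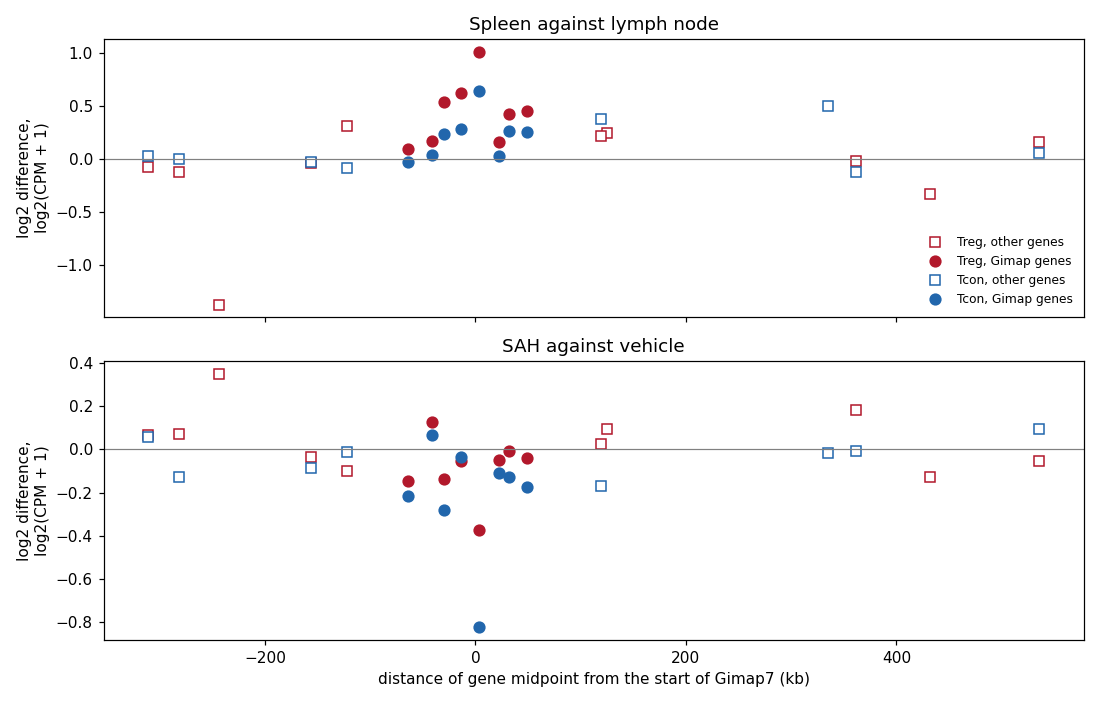
Fitted log2 differences on the log2(CPM + 1) scale against the distance of each gene's midpoint from the start of Gimap7 (kb); filled circles are the 8 members, open squares the other measured genes within 500 kb, red Treg and blue Tcon. In the upper panel all members but Gimap8 (-0.03 in Tcon) lie above 0 in both cell types. Gimap1 (0.02) and Gimap9 (0.03) are close to 0 in Tcon. Gimap7 has the highest member value in the upper panel, 1.01 in Treg, and the lowest in the lower panel, -0.82 in Tcon. The value of -0.82 comes from the contrast by which Gimap7 was chosen.

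Across libraries, the genes whose levels followed Gimap7 most closely were ranked by the lower of its 2 Pearson correlations, over 6 Treg and over 6 Tcon libraries, among 7705 genes with a mean of at least 10 in both cell types. They were Art2b (r = 0.973 in Treg, 0.979 in Tcon), Nfatc1 (0.983 and 0.972), Gimap4 (0.987 and 0.972), Gimap3 (0.942 and 0.95) and Znf330 (0.934 and 0.926). These libraries share organ and treatment, which both move Gimap7, so the values only describe likeness. Of the other members, Gimap5 ranked 27, Gimap1 74, Gimap6 218, Gimap8 306 and Gimap9 3108, the last with r = 0.511 in Treg and -0.193 in Tcon.

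Art2b, which encodes a cell-surface ADP-ribosyltransferase of T cells, had 31.2, 23.1 and 22.3 in lymph node Treg and 56.7, 42.6 and 44.6 in spleen Treg. In Tcon it had 15.1, 10.7 and 8.58 in lymph node and 27.1, 15.1 and 16.2 in spleen. As with Gimap7, vehicle was above both SAH libraries in each organ and spleen was above lymph node within each treatment. Nfatc1, a transcription factor of T cell activation, moved over a much narrower range, from 246 to 325 in Treg and from 182 to 199 in Tcon. A high correlation thus did not require a difference of the size seen for Gimap7.

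Among the members themselves, correlations over 6 libraries were strongest for Gimap3 with Gimap6 in Treg (r = 0.994) and for Gimap4 with Gimap7 in Tcon (r = 0.972). Gimap9 stood apart in Tcon, with r from -0.729 with Gimap8 to 0.512 with Gimap6. Gimap8 correlated with Gimap6 at 0.536 in Treg and at -0.172 in Tcon.

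Genes that work with GIMAP proteins or in the same processes were counted from lists chosen with earlier results known. Of 23 BCL2-family and autophagy genes, 5 were higher and 2 lower in spleen Treg, where 8.71% of all genes were higher and 6.01% lower. The higher ones included the autophagosome protein gene Map1lc3a (log2 0.42, adjusted p = 0.0158), the autophagy receptor Sqstm1 (0.38, adjusted p = 0.000132) and the autophagy kinase Ulk1 (0.30, adjusted p = 0.000999, limma). The lower ones, named after their values were seen, were the survival genes Bcl2l1 (-0.29, adjusted p = 0.00497) and Bcl2 (-0.21, adjusted p = 0.0109). In spleen Tcon 1 was higher, Bcl2 (0.33, adjusted p = 0.00344), against 3.28% of all genes. Bcl2 was also the 1 gene of the list whose organ difference differed between the cell types (Treg minus Tcon -0.54, adjusted p = 0.000487, limma). The median log2 organ difference of the list was 0.07 in each cell type. With SAH, 0 passed in Treg and 1 in Tcon, the chaperone Hspa8 (0.37, adjusted p = 0.0401), against 0.202% and 1.04% of all genes.

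Of 24 quiescence and survival genes, 7 were higher and 1 lower in spleen Treg, against 8.71% and 6.01% of all genes. The higher ones were led by Klf2, a factor of T cell quiescence and trafficking (log2 0.51, adjusted p = 0.000222), and Il7r, the receptor for the survival cytokine IL-7 (0.29, adjusted p = 0.00987, limma). Bach2, also named after its value was seen, was the lower one (-0.19, adjusted p = 0.0174). In spleen Tcon 0 of 24 passed, against 4.73% of all genes. With SAH 0 passed in Treg, against 0.202% of all genes. Tob1, an antiproliferative gene, was the 1 called in Tcon (0.45, adjusted p = 0.0181, limma), against 1.04% of all genes. Interferon-inducible GTPases, another GTPase group, had 16 of 19 genes measured. In spleen 0 were higher and 2 lower in each cell type (Gbp5 and Ifi47 in Treg, Mx2 and Gbp6 in Tcon). Of all genes, 8.71% were higher and 6.01% lower in Treg, and 3.28% higher and 1.46% lower in Tcon. With SAH 0 of these GTPases passed in either cell type, against 0.202% of all genes in Treg and 1.04% in Tcon. The median log2 organ difference of these GTPases was -0.13 in Treg and -0.16 in Tcon, against 0.44 and 0.24 for the GIMAP members.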

How the data were processed

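RNA sequencing of 12 libraries was available as 1 deposited table per cell type. Stranded mRNA libraries were made from Trizol-extracted RNA, per the labels' protocols. The submitters' processing notes name TopHat, Bowtie and edgeR and the build mm10, without versions, and neither an annotation nor a counting program. The authors deposited a normalized signal per gene and library, called CPM in the file headers, whose library totals ran from 971928 to 1.02143e+06. They also deposited log2 fold changes and mean log2 expression, likelihood ratio scores with a call per gene, and p-values with false discovery rates, per the file headers. All p-values elsewhere in the text were computed here.

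Values were taken as log2(signal + 1) and fitted with limma 3.58.1 in R 4.3.3 (intensity trend, two-sided, Benjamini-Hochberg over all genes, threshold 0.05), keeping genes with at least 1 in at least 2 libraries, which all genes met. A fold change is on that scale and slightly understates changes of low genes. Organ and treatment were terms of 1 model per cell type (3 residual degrees of freedom); interactions used all 12 libraries (6, or 3 with the library number as a block). The block was the library number in the titles, which the labels do not describe as a pairing. After removing organ and treatment, same-numbered Treg and Tcon libraries correlated at 0.286 to 0.537 over 9784 genes, and each matched its own number best. With 1 vehicle library per organ, libraries 01 and 04 have mirrored deviations in this fit, and both correlated at 0.286. For libraries 01 and 04 the match cannot tell a pairing apart from an organ-dependent SAH response shared by both cell types. Such a response would move 02 and 03 alike, and 05 and 06 alike. What made those libraries match by number was not tested. The script was tested on simulated data. Low values were whole multiples of 1 read to within 0.1, which gave the depths. All 8 members are named; of each gene list, up to 4 called genes with the largest difference per comparison could be named, and the 5 genes most like Gimap7. Loci came from GENCODE for mm10 and upstream sequences from RefSeq for GRCm38.p6, which held all 8 members. Members and lists were chosen with earlier results of these data known. Alternatives were another pseudocount (0.1), a filter at 10, size factors by median of ratios, scaling every library to the same total, 1 symbol per set of identical rows, the block, and leaving out each library.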

Additional observations from a re-analysis of the deposited data

How the results depend on the processing

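The number of members called by organ in Tcon, 5, became 3 with the filter at 10 and 3 with every library scaled to the same total, and ran from 1 to 5 when 1 library was left out; in Treg, 6 became 5 to 6. For SAH in Treg, 0 became 0 to 1 with a library left out. The organ difference compared between cell types gave 0 members without and 4 with the replicate block, and 0 to 1 with a library left out. The SAH effect compared between cell types gave 0 of all genes without and 76 with the replicate block. Members were not counted in it, nor for SAH in Tcon, since both hold the values by which they were chosen. The block was run on these between-cell-type comparisons alone. Gimap7 against its neighbours in Tcon, -0.70, was -0.61 against their median, and -0.74 to -0.66 with a library left out; in Treg, -0.33 was -0.39 to -0.25 with a library left out.

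Values that changed sign were all near 0 and not called. Gimap6 in the SAH effect compared between cell types was -0.02 and became 0.0062 with every library scaled to the same total, and -0.15 to 0.11 with a library left out; Gimap1 ran from -0.014 to 0.13, Gimap8 from -0.012 to 0.15 and Gimap9 from -0.058 to 0.18 there. For SAH in Treg, Gimap1 ran from -0.12 to 0.026 and Gimap5 from -0.049 to 0.027; in Tcon, Gimap6 ran from -0.17 to 0.099 and Gimap9 from -0.055 to 0.18. By organ in Tcon, Gimap1 ran from -0.014 to 0.042, Gimap8 from -0.061 to 0.021 and Gimap9 from -0.048 to 0.073. The causes were not tested. The planned count test on reads rebuilt from the values was not run. With 1 vehicle library per organ, every SAH value rests on a single vehicle library in each organ.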

Other observations

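The SAH libraries of a group differed in the same direction for several members in both cell types. Library 02 was above library 03, and 05 above 06, for Gimap7, Gimap4, Gimap5 and Gimap8 in Treg and in Tcon. Gimap1, Gimap3, Gimap6 and Gimap9 did not share this pattern. In Treg their log2 ratios of 05 to 06 were -0.11, -0.07, -0.04 and -0.03. In Tcon the log2 ratio of 05 to 06 was only 0.011 for Gimap5 and for Gimap8. The share of all genes with this pattern was not counted. For Gimap7 the log2 ratio of 02 to 03 was 0.37 in Treg and 0.16 in Tcon, and that of 05 to 06 was 0.20 and 0.09. For Gimap4 the log2 ratios were 0.07 and 0.08 for the lymph node libraries and 0.13 and 0.11 for the spleen libraries, Treg first.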
